A study of Mus musculus with 12 samples.

Results

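STAT factors carry signals from cytokine receptors to the nucleus and SOCS proteins switch those signals off. The transcripts of 9 such genes were followed through the pDC lineage of mice with and without HDAC3: *Stat2*, *Stat3*, *Stat4*, *Stat5a*, *Stat5b*, *Stat6*, *Socs1*, *Socs2* and *Socs3*. They were chosen by name from the 2 families, with earlier results of these data known, and are 9 of 21088 genes listed over the 3 expression tables. All 9 had a row in each table. RNA-seq was available for LMPPs (lymphoid-primed multipotent progenitors, sorted as Flt3+CD34+ LSK cells), CD115-CDPs (common dendritic cell progenitors without CD115) and BM pDCs (bone marrow plasmacytoid dendritic cells). HDAC3-deficient cells came from *Hdac3* fl/fl CreERT2 mice and control cells from *Hdac3* fl/fl mice, with 2 libraries per genotype and cell type, 12 in all. Both genotypes carried the floxed *Hdac3* alleles, were on the C57BL/6 background and were given tamoxifen on 5 days, the sort following 7 days later. Cre was driven from the ubiquitous *Rosa26* locus, so that *Hdac3* was deleted in the whole animal and not in the sorted cells alone. The control mice carried no Cre, so that loss of HDAC3 and presence of active Cre cannot be told apart.

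Many cytokine receptors have no kinase activity of their own and signal through bound JAK kinases, whereas FLT3 and KIT are themselves tyrosine kinases. The kinases phosphorylate STAT proteins so that they pair, enter the nucleus and bind DNA. Among the genes that they switch on are the *Socs* genes, whose products block the receptor or the JAK and close a feedback loop. In mouse dendritic cell development, STAT3 acts downstream of FLT3 ligand, the main growth factor of pDCs, whereas STAT5 acts downstream of GM-CSF and restrains pDC formation. STAT2 works with IRF9 in the type I interferon response, STAT4 in the response to interleukin-12 and STAT6 in the response to interleukin-4. SOCS1 inhibits interferon signalling, SOCS2 growth hormone signalling and SOCS3 signalling through gp130 and the G-CSF receptor.

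*Hdac3* itself lay lower in HDAC3-deficient than in control libraries of every cell type. It measured 16.9 and 9.87 FPKM in HDAC3-deficient LMPPs, against 56.5 and 66.35 FPKM in control LMPPs. It measured 12.1 and 0.93 FPKM in HDAC3-deficient CD115-CDPs, against 58.2 and 39.6 FPKM in controls, and 15.6 and 15.85 FPKM in HDAC3-deficient BM pDCs, against 38.9 and 37.8 FPKM in controls. The floxed part is exon 3, and reads from the rest of the transcript still add to its FPKM. FPKM, fragments per kilobase of transcript scaled to the mapped fragments of a library, corrects for transcript length, so levels of different genes can be set side by side. The expected counts of the BM pDC libraries summed to between 18117748 and 18462220, and the depth of the other libraries is not known. HDAC3-deficient CD115-CDP library 2 stood apart, having 11288 genes detected where the remaining 3 of that cell type had between 13684 and 15173. The 7 pDC markers, among them *Siglech* and *Bst2*, were present in all BM pDC libraries, with a summed level of 4638 to 4852 FPKM in HDAC3-deficient and 8376 to 8591 FPKM in control cells. In LMPPs *Flt3*, *Cd34* and *Kit* were all above 67 FPKM in each library. Each of them was lower in both HDAC3-deficient LMPP libraries than in both controls. *Kit*, for example, was at 87.3 and 67.5 FPKM in HDAC3-deficient and 121.6 and 137.7 FPKM in control LMPPs. The remaining LMPP marker, *Ly6a*, overlapped between genotypes. Control LMPP library 1 held 3716 FPKM of 4 erythroid markers against 33.45 to 98.2 FPKM in the other 3. The libraries are duplicates, and since no source tells whether they came from separate mice, the spread behind each p-value is that of these samples and could be technical.

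The 9 genes lie on 4 chromosomes of the GRCm38 build. *Stat3* (chr11:100886806-100939594), *Stat5a* (chr11:100859351-100885169) and *Stat5b* (chr11:100780731-100859004) stand side by side, with 346 bases between *Stat5a* and *Stat5b* and 1636 bases between *Stat5a* and *Stat3*, and *Socs3* (chr11:117966079-117970336) is on the same chromosome. *Stat2* (chr10:128270498-128292853) and *Stat6* (chr10:127642955-127660987) are 609.51 kb apart, with *Socs2* (chr10:95383903-95417321) elsewhere on chromosome 10. *Stat4* (chr1:51987106-52107189) and *Socs1* (chr16:10783808-10785536) stand alone. The promoters, taken from RefSeq as 250 bases before to 50 bases after each annotated start, were searched on both strands because STAT genes and their inhibitors can themselves be targets of STAT dimers and interferon factors. The motifs were TTCNNNGAA, the site of most STAT dimers, the STAT6 site, which has 1 more base between the same ends, and the core of the interferon-stimulated response element. They are held by 8.30%, 6.95% and 3.44% of 32851 mouse promoters, and by at least 1 promoter of 9.55%, 8.01% and 3.99% of 27025 genes. Of the 8 members with a promoter in the RefSeq set, 1 held the STAT site, 1 the spaced site and 3 the interferon element. The stretches with a match, from 4 members, are all shown, whatever the change of the gene. *Stat2*, *Stat4* and *Socs3* changed in a cell type below, and so did *Stat3*, *Stat5a* and *Stat5b*, whose promoters held no match. Capitals mark the matches, and a match describes the letters and not binding. *Stat2* (chr10:128270254-128270319, plus strand) has the interferon element in its reverse complement and then the spaced site. *Stat4* (chr1:52008121-52008174, plus strand) has 1 interferon element, before a start that lies inside the gene. In *Socs1* (chr16:10785582-10785641, minus strand) the 2 elements overlap, the end of 1 being the start of the other. *Socs3* (chr11:117969490-117969542, minus strand) has the STAT site, also before a start that lies inside the gene.
Stat2: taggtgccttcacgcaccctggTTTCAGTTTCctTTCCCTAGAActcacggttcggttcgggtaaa
Stat4: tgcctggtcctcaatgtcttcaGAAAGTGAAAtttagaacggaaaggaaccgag
Socs1: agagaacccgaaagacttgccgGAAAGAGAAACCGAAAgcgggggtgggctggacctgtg
Socs3: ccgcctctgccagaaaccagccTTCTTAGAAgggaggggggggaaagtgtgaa

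The STAT genes differed in where along the lineage they were expressed. The tables of the 3 cell types were normalized separately, so their levels are a description without a test. *Stat2* was highest in BM pDCs in both genotypes. It averaged 75.1 FPKM in HDAC3-deficient BM pDCs, 16.1 FPKM in HDAC3-deficient CD115-CDPs and 5.88 FPKM in HDAC3-deficient LMPPs, against 91.8, 19.6 and 11.97 FPKM in the same order of control cells, and the libraries of neighbouring cell types did not overlap. *Stat4* ran the other way, averaging 29.7 FPKM in HDAC3-deficient LMPPs, 18.5 FPKM in HDAC3-deficient CD115-CDPs and 11.1 FPKM in HDAC3-deficient BM pDCs, against 42.1, 15.6 and 3.78 FPKM in controls, again with no overlap between neighbours. In controls *Stat3*, *Stat5a* and *Stat5b* were each highest in LMPPs and lowest in BM pDCs. In HDAC3-deficient cells the order of these 3 genes was turned round, with the highest mean in BM pDCs, although *Stat5b* in BM pDCs and CD115-CDPs overlapped, and CD115-CDPs and LMPPs overlapped for all 3. The control order of *Stat3* depended on the scale: with each library set to the same summed FPKM, control means were 127.4 in BM pDCs, 126.6 in LMPPs and 125.9 in CD115-CDPs. Of the 18 orders, 9 genes in each genotype, 14 were the same after that rescaling. *Stat6* had control means between 39.4 FPKM in CD115-CDPs and 50.2 FPKM in BM pDCs. *Socs2* was barely detected in BM pDCs, at 0.46 and 0.37 FPKM in HDAC3-deficient and 0.42 and 0.41 FPKM in control libraries, against 4.86 and 4.59 FPKM in control CD115-CDPs.

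**Figure D1:**
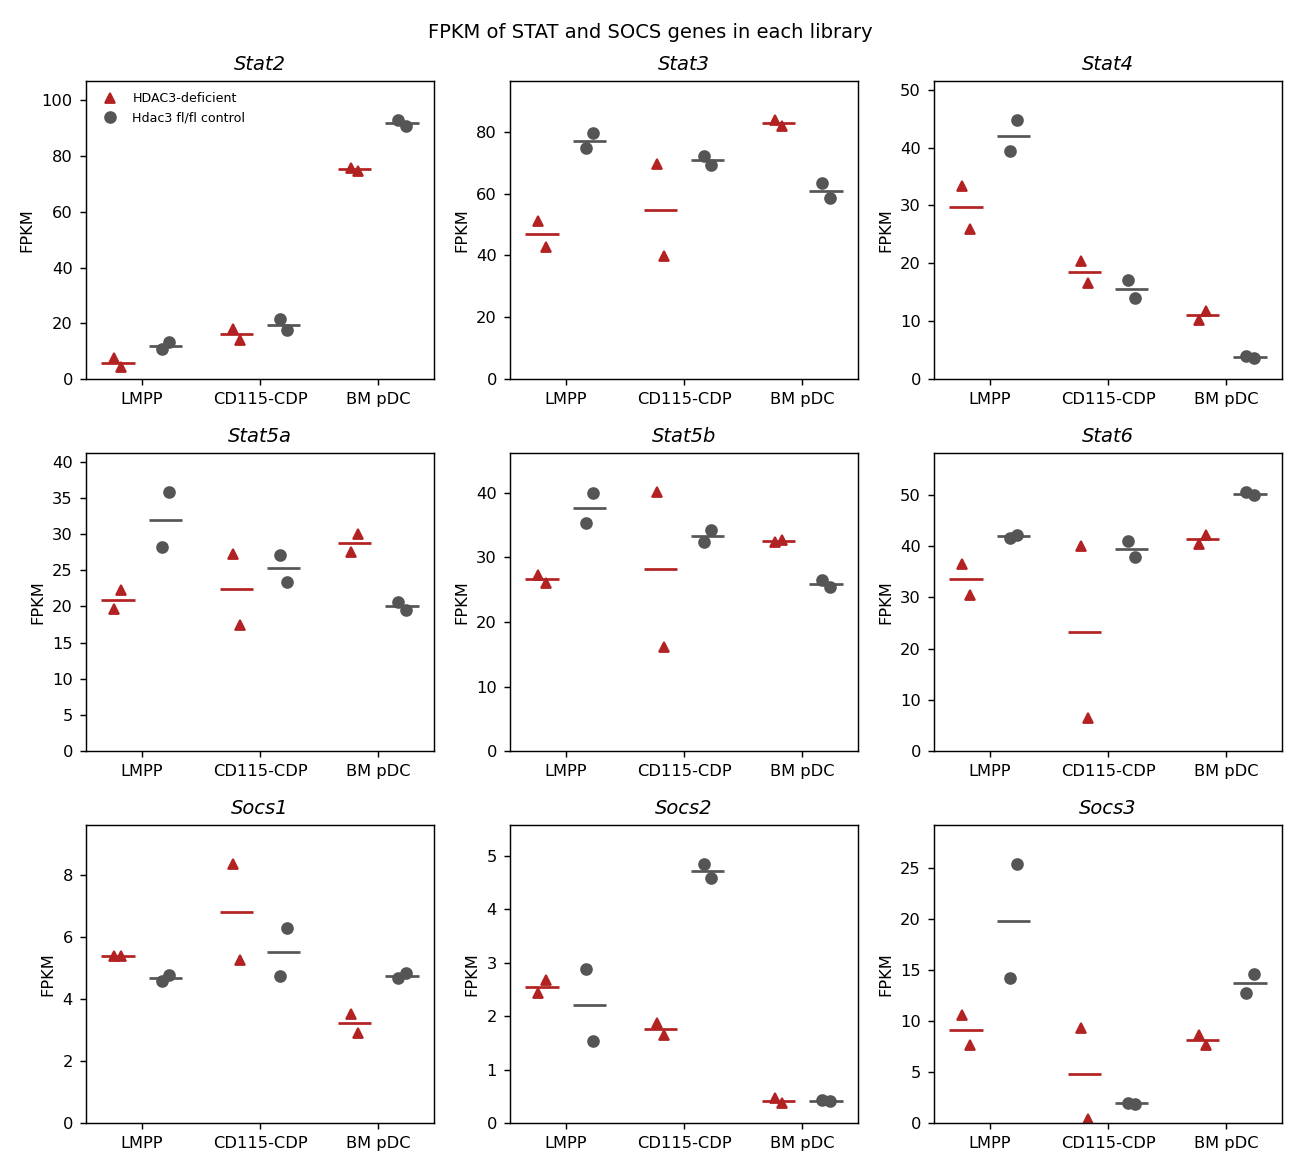
FPKM of each of the 9 genes on linear axes starting at 0, for LMPPs, CD115-CDPs and BM pDCs, with HDAC3-deficient libraries as triangles left of *Hdac3* fl/fl control libraries as circles, and the mean of 2 libraries as a line. In BM pDCs *Stat4* lies at 10.3 and 11.8 FPKM in HDAC3-deficient libraries, above 3.94 and 3.62 FPKM in controls, and in CD115-CDPs the HDAC3-deficient libraries lie far apart for *Stat6* and *Socs3*.

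In LMPPs *Stat2*, *Stat3* and *Stat5a* fell without HDAC3 and the other 3 STAT genes did not pass the test, where 18.8% of all genes tested were called lower. *Stat2*, the interferon-response member, measured 7.52 and 4.24 FPKM in HDAC3-deficient LMPPs, against 10.75 and 13.2 FPKM in controls, and fell by 1.01 on the log2 scale (SE 0.27, limma with Benjamini-Hochberg correction over all genes, adjusted p = 0.0153). *Stat3*, the factor downstream of FLT3 ligand, measured 51.1 and 42.6 FPKM against 74.7 and 79.5 FPKM in controls, and fell by 0.72 (SE 0.17, limma, adjusted p = 0.00733). *Stat5a*, which acts downstream of GM-CSF, measured 19.7 and 22.2 FPKM against 28.2 and 35.9 FPKM in controls, and fell by 0.59 (SE 0.19, limma, adjusted p = 0.0336). For these 3 genes each HDAC3-deficient library lay under both controls, and the mean of *Stat2* was 0.49 of that of the controls.

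The other STAT genes lay on the same side without passing. *Stat4* measured 33.4 and 26.0 FPKM in HDAC3-deficient LMPPs, against 39.35 and 44.8 FPKM in controls (log2 change −0.50, SE 0.18, limma, adjusted p = 0.0568). *Stat5b*, the close relative of *Stat5a*, measured 27.2 and 26.0 FPKM against 35.3 and 40.0 FPKM in controls (−0.49, SE 0.17, limma, adjusted p = 0.0502). Both missed the threshold narrowly, with no overlap of the genotypes. *Stat6* had the smallest difference of the STAT genes, at 36.5 and 30.5 FPKM in HDAC3-deficient and 41.6 and 42.2 FPKM in control LMPPs (−0.32, SE 0.17, limma, adjusted p = 0.173). Reads shared by the near-identical *Stat5a* and *Stat5b* may be split between them, so their sum is also given, which was 46.9 and 48.2 FPKM in HDAC3-deficient and 63.5 and 75.9 FPKM in control LMPPs.

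Of the SOCS genes only *Socs3*, the inhibitor of gp130 and G-CSF receptor signalling, passed in LMPPs. It measured 10.6 and 7.68 FPKM in HDAC3-deficient LMPPs, against 14.2 and 25.5 FPKM in controls, and fell by 1.04 on the log2 scale (SE 0.26, limma, adjusted p = 0.0120). The controls differed from each other more than the HDAC3-deficient libraries did, and leaving out 1 library at a time moved the log2 change between −1.45 and −0.63, as it did for *Stat2* between −1.39 and −0.63. *Socs1* measured 5.37 and 5.39 FPKM in HDAC3-deficient LMPPs and 4.56 and 4.77 FPKM in controls (0.19, SE 0.25, limma, adjusted p = 0.601). *Socs2* measured 2.43 and 2.67 FPKM in HDAC3-deficient LMPPs and 2.89 and 1.54 FPKM in controls, so that the genotypes overlapped.

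In LMPPs, then, 4 members fell, 0 rose and 5 did not pass. Over all 11146 genes tested, 23.1% were called, 4.31% higher and 18.8% lower in HDAC3-deficient LMPPs, so a fall was the more frequent call in this table whatever the gene. The members' median log2 change was −0.50 and that of all genes was −0.23. For 7 members the 2 HDAC3-deficient libraries were under the lower control, and for 1, *Socs1*, over the higher one, against 48.2% below and 17.6% above among all genes tested. With median ratio scaling, which brought the median of all genes to −0.00 and the split of calls to 863 higher and 999 lower, against 480 higher and 2096 lower, no member passed: *Stat2* was at −0.77 (adjusted p = 0.0579), *Stat3* at −0.47 (adjusted p = 0.0689), *Stat5a* at −0.34 (adjusted p = 0.208) and *Socs3* at −0.79 (limma, adjusted p = 0.0619). Without control library 2 *Stat2*, *Stat3*, *Stat5a* and *Socs3* were all lost with limma, and fewer of all genes passed as well. Without HDAC3-deficient library 2 *Stat2* was lost. Without HDAC3-deficient library 1 *Stat5a* was lost while *Stat4* and *Stat5b* passed as lower. Leaving out 1 library at a time kept the log2 change between −0.85 and −0.59 for *Stat3* and −0.76 and −0.42 for *Stat5a*. Markers of other cells moved with genotype here: the 4 granulocyte markers summed to 133 to 140 FPKM in HDAC3-deficient and 354 to 438 FPKM in control LMPPs, with 3 of 4 lower, and of 8 NK and T cell markers 4 stayed under 1 FPKM in every library, 1 was higher and 4 were lower. *Nkg7* was the higher one, at 366 and 451 FPKM against 221 and 222 FPKM, and *Klrb1c* was among the lower ones, at 0.63 and 0.42 FPKM against 3.15 and 2.51 FPKM. Their part in the members' values was not tested. In bulk libraries, fewer cells that express a gene and less RNA per cell cannot be told apart.

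In CD115-CDPs no member passed the test, and neither did any other of the 10832 genes tested with limma (0%), although 332 genes were higher and 644 lower at an unadjusted p under 0.05. The HDAC3-deficient libraries disagreed with each other for most members. *Stat6*, the interleukin-4 factor, measured 40.0 and 6.38 FPKM in HDAC3-deficient CD115-CDPs, against 40.9 and 37.8 FPKM in controls. *Stat5b* measured 40.2 and 16.2 FPKM against 32.3 and 34.25 FPKM in controls, and *Stat3* 69.5 and 40.0 FPKM against 72.2 and 69.4 FPKM in controls. In each case library 1 was close to or above the controls and library 2, the one with fewer genes detected, was far below them. *Socs3* was even more split, at 9.28 and 0.40 FPKM in HDAC3-deficient CD115-CDPs and 1.99 and 1.88 FPKM in controls.

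*Socs2*, the growth hormone pathway inhibitor, was the 1 member whose genotypes did not overlap in CD115-CDPs. It measured 1.88 and 1.64 FPKM in HDAC3-deficient CD115-CDPs, against 4.86 and 4.59 FPKM in controls (log2 change −1.21, SE 0.48, limma, unadjusted p = 0.0482, adjusted p = 0.552). Among all genes tested in CD115-CDPs, the 2 HDAC3-deficient libraries were under the lower control for 28.4% and over the higher one for 15.2%. *Stat2* measured 17.95 and 14.2 FPKM in HDAC3-deficient CD115-CDPs and 21.5 and 17.7 FPKM in controls, *Stat4* 20.4 and 16.65 FPKM and 17.1 and 14.1 FPKM, *Stat5a* 27.3 and 17.5 FPKM and 27.2 and 23.4 FPKM, and *Socs1* 8.36 and 5.25 FPKM and 4.73 and 6.28 FPKM. All 4 overlapped between genotypes. Without HDAC3-deficient library 2, *Socs3* rose by 2.01 (limma, adjusted p = 0.00157) and no other member passed. Without HDAC3-deficient library 1, *Stat6* (−2.53, adjusted p = 1.3e-08), *Stat5b* (−1.02, adjusted p = 0.00101), *Stat3* (−0.82, adjusted p = 0.00264), *Socs2* (−1.29, adjusted p = 0.0135) and *Socs3* (−1.44, limma, adjusted p = 0.0301) fell, with the spread of the lone HDAC3-deficient library taken from the controls. That fit rests on the library that stood apart and called 47.2% of all genes, 15.1% higher and 32.0% lower, while the fit without library 2 called 12.9%. Markers moved with genotype in CD115-CDPs as well. All 7 pDC markers were lower, summing to 1138 and 509 FPKM in HDAC3-deficient and 2965 and 2256 FPKM in control CD115-CDPs. All 5 cDC markers were lower, 2 of them under 1 FPKM in every library, and summed to 10.7 and 15.8 FPKM against 48.55 and 41.3 FPKM. Of 7 NK and T cell markers with a row, 1 was higher and 1 lower, and 4 stayed under 1 FPKM in every library. *Nkg7* was the higher one, at 281 and 399.8 FPKM against 46.7 and 65.95 FPKM. *Klrd1* overlapped between genotypes, at 13.6 and 22.95 FPKM against 39.7 and 20.7 FPKM. Their part in the members' values was not tested.

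In BM pDCs *Stat4*, *Stat3*, *Stat5a* and *Stat5b* rose and *Socs3* fell. *Stat4*, the interleukin-12 factor, had 511 and 588 expected counts, or 10.3 and 11.8 FPKM, in HDAC3-deficient BM pDCs, against 192 and 179 expected counts, or 3.94 and 3.62 FPKM, in controls. Its log2 change was 1.69 (SE 0.13, edgeR quasi-likelihood test with Benjamini-Hochberg correction over all genes, adjusted p = 1.1e-04), and it passed in all 10 other settings tried. *Stat3* measured 83.8 and 81.8 FPKM in HDAC3-deficient BM pDCs, against 63.3 and 58.55 FPKM in controls (0.57, SE 0.09, edgeR, adjusted p = 0.00240). *Stat5a* measured 27.6 and 30.0 FPKM against 20.7 and 19.5 FPKM in controls (0.65, SE 0.10, edgeR, adjusted p = 0.00182). *Stat5b* measured 32.4 and 32.7 FPKM against 26.4 and 25.4 FPKM in controls (0.46, SE 0.09, edgeR, adjusted p = 0.00462). The sum of *Stat5a* and *Stat5b* was 60.0 and 62.7 FPKM in HDAC3-deficient and 47.1 and 44.9 FPKM in control BM pDCs, so the genotypes were apart in the sum as well. Since FPKM is scaled by transcript length, the sum is not fully free of how shared reads were split.

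*Stat2* and *Stat6* did not pass the edgeR test. *Stat2*, the most abundant member in control BM pDCs, measured 75.7 and 74.5 FPKM in HDAC3-deficient cells, against 92.8 and 90.8 FPKM in controls (log2 change −0.16, SE 0.09, edgeR, adjusted p = 0.176). *Stat6* measured 40.5 and 42.1 FPKM against 50.6 and 49.9 FPKM in controls (−0.15, SE 0.09, edgeR, adjusted p = 0.216). Both lay below the controls in FPKM in every library. With limma on log2(FPKM + 0.5), where the median of all genes was −0.15 and 1881 genes were called higher and 3696 lower, against 2753 higher and 2858 lower with edgeR, both passed as lower: *Stat2* at −0.29 (adjusted p = 0.0157) and *Stat6* at −0.28 (adjusted p = 0.0202).

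Among the inhibitors, *Socs3* fell in BM pDCs as it did in LMPPs. It had 438 and 387 expected counts, or 8.68 and 7.63 FPKM, in HDAC3-deficient BM pDCs, against 642 and 731 expected counts, or 12.7 and 14.7 FPKM, in controls (log2 change −0.61, SE 0.11, edgeR, adjusted p = 0.00389). *Socs1* measured 3.52 and 2.90 FPKM in HDAC3-deficient BM pDCs, against 4.68 and 4.82 FPKM in controls, from 80 and 68 expected counts against 107 and 111 (−0.44, SE 0.18, edgeR, adjusted p = 0.0912). With limma on FPKM it passed as lower (−0.51, adjusted p = 0.0194). *Socs2* had 19 and 16 expected counts in HDAC3-deficient BM pDCs and 17 and 17 in controls (0.16, SE 0.36, edgeR, adjusted p = 0.750), a depth at which only a large difference could be seen.

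In BM pDCs 4 members thus rose, 1 fell and 4 did not pass. Of the 12716 genes tested there, 44.1% were called, 21.6% higher and 22.5% lower, and the members' median log2 change was 0.16 against −0.01 for all genes. Both HDAC3-deficient libraries lay above both controls in FPKM for 4 members and below them for 4, against 27.2% and 48.9% of all genes tested. Without control library 2 *Stat3*, *Stat5b* and *Socs3* were lost with edgeR, and without control library 1 *Stat5b* was lost. In both fits fewer of all genes passed as well. Leaving out 1 library at a time kept the log2 change between 1.56 and 1.82 for *Stat4* and 0.56 and 0.76 for *Stat5a*. It stayed between 0.50 and 0.64 for *Stat3*, 0.43 and 0.51 for *Stat5b*, and −0.71 and −0.52 for *Socs3*. Other cell type markers moved with genotype in these libraries. The 5 cDC markers summed to 217 to 222 FPKM in HDAC3-deficient and 48.8 to 53.8 FPKM in control BM pDCs, with *Clec9a*, *Zbtb46* and *Batf3* higher and *Xcr1* and *Itgae* under 1 FPKM in every library. The 4 monocyte and macrophage markers summed to 115 to 138 FPKM against 42.7 to 50.6 FPKM, with 3 of 4 higher. *Adgre1* was lower and under 1 FPKM in every library (0.37 and 0.32 FPKM in HDAC3-deficient, 0.89 and 0.92 FPKM in control BM pDCs). The 7 pDC markers were all lower, and *Kit*, a progenitor marker, was at 8.52 and 9.77 FPKM against 1.77 and 1.54 FPKM. The part of these markers in the members' values was not tested. Of the 8 markers of NK and T cells, which are known to express *Stat4*, 6, *Cd3e*, *Cd3g*, *Cd3d*, *Ncr1*, *Klrb1c* and *Gzma*, stayed under 1 FPKM in every library, and the list, mostly *Klrd1*, summed to 116 to 126 FPKM in HDAC3-deficient and 143 to 148 FPKM in control BM pDCs. Of the list 4 markers were higher and 2 lower. *Klrd1* was at 104 and 111 FPKM in HDAC3-deficient and 136 and 142 FPKM in control BM pDCs, and *Nkg7* at 10.6 and 12.7 FPKM and 5.24 and 4.54 FPKM.

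**Figure D2:**
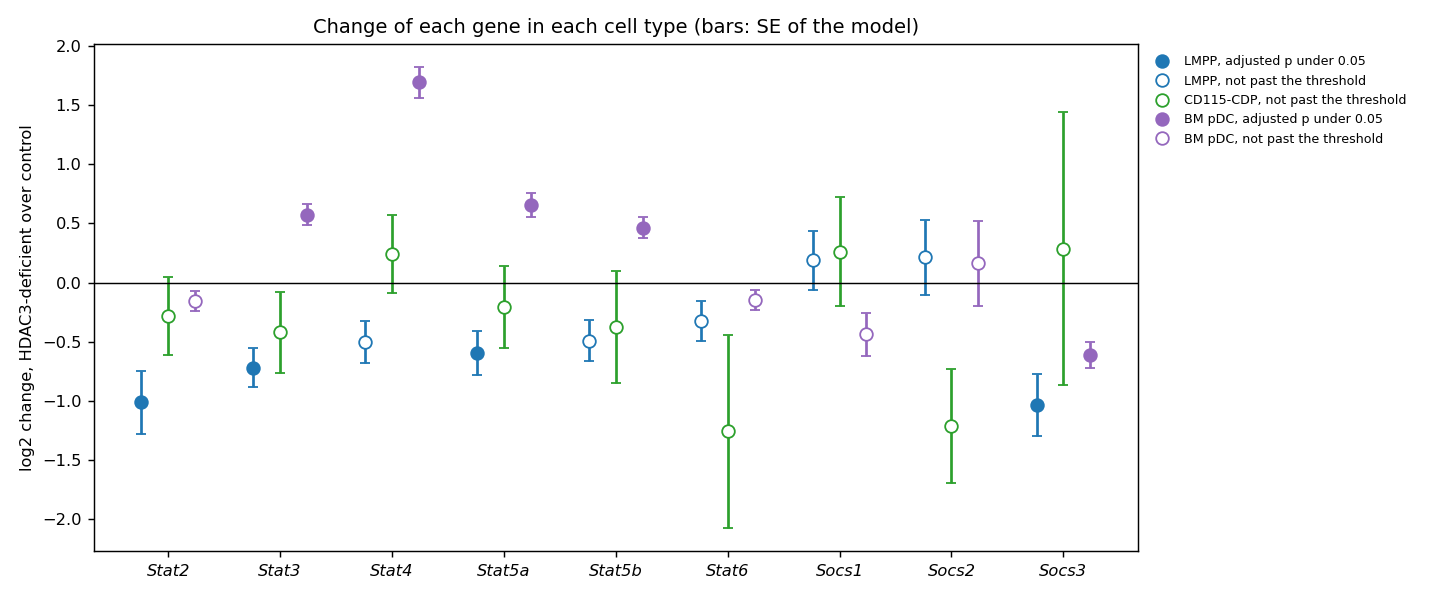
Log2 change of each gene, HDAC3-deficient over control, in LMPPs, CD115-CDPs and BM pDCs, with the SE of the model as bars and filled points for an adjusted p under 0.05. *Stat3* and *Stat5a* are filled below 0 in LMPPs (−0.72 and −0.59) and above 0 in BM pDCs (0.57 and 0.65), and no point is filled in CD115-CDPs.

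Whether the effect of HDAC3 loss differed between cell types was tested directly, as a difference of log2 changes in 1 limma model of all 12 libraries. *Stat4* differed between BM pDCs and LMPPs by 1.93 (SE 0.29, limma, adjusted p = 0.00951), being higher than control in both libraries of BM pDCs and lower in both of LMPPs. It was the 1 member that passed, where 4.03% of 11560 genes did. *Stat3* (1.16, SE 0.32, limma, adjusted p = 0.0785) and *Stat5a* (1.10, SE 0.32, limma, adjusted p = 0.0894) missed the threshold, and *Stat5b* differed by 0.81 (SE 0.46, limma, adjusted p = 0.385) and *Socs1* by −0.69 (SE 0.38, limma, adjusted p = 0.370). For *Socs3*, which fell in both cell types, the difference was 0.32 (adjusted p = 0.939). This model shares 1 estimate of the spread with the CD115-CDP libraries, of which HDAC3-deficient library 2 stood apart. With the BM pDC and LMPP libraries alone, 5 members passed: *Stat4* (limma, adjusted p = 4.6e-04), *Stat3* (0.00144), *Stat5a* (0.00398), *Stat5b* (0.00588) and *Socs1* (0.0490), against 3223 of all genes. Leaving out a library from the full model kept the *Stat4* difference between 1.76 and 2.11, and its adjusted p exceeded 0.05 without HDAC3-deficient LMPP library 2 (0.0533), control LMPP library 2 (0.0617), HDAC3-deficient BM pDC library 2 (0.0661), control BM pDC library 1 (0.0531) and control BM pDC library 2 (0.0693).

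*Stat4* also differed between BM pDCs and CD115-CDPs, by 1.19 (SE 0.29, limma, adjusted p = 0.0428), where 6.64% of genes passed. This call held in 3 of 16 other settings, with adjusted p between 0.00151 and 0.259, and was lost without any 1 of the LMPP, BM pDC or control CD115-CDP libraries (adjusted p 0.0532 to 0.186) and with the 2 cell types alone (0.109). Between CD115-CDPs and LMPPs no member passed with limma, where 1.06% of genes did, and 2 members had an unadjusted p under 0.05.

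The make-up of the STAT transcripts, which does not depend on how a library was scaled, differed between genotypes in BM pDCs. *Stat2* made up 27.6 ± 0.51% of the summed FPKM of the 6 STAT genes in HDAC3-deficient BM pDCs, against 36.3 ± 0.45% in controls (mean ± SD, n = 2 libraries each, values without a test). *Stat3* made up 30.5 ± 0.74% against 24.1 ± 0.65% in controls, so *Stat3* was the leading STAT transcript in HDAC3-deficient and *Stat2* in control BM pDCs. The share of *Stat4* was 4.08 ± 0.37% against 1.495 ± 0.05% in controls, and that of *Stat6* 15.2 ± 0.33% against 19.9 ± 0.35%. The sum of the 6 genes was close between genotypes, at 270.2 and 272.9 FPKM in HDAC3-deficient and 257.7 and 247.7 FPKM in control BM pDCs. In LMPPs the sum itself was lower, at 175 and 152 FPKM in HDAC3-deficient and 230 and 256 FPKM in control cells, and several shares overlapped between genotypes. *Stat4* made up 18.1 ± 1.36% in HDAC3-deficient and 17.3 ± 0.28% in control LMPPs, and *Stat5a* 12.9 ± 2.44% and 13.1 ± 1.26%, with overlapping libraries for both. *Stat3* made up 28.6 ± 0.72% against 31.8 ± 0.98% in control LMPPs and *Stat6* 20.5 ± 0.45% against 17.3 ± 1.11%, without overlap. In CD115-CDPs *Stat6* made up 18.6% and 5.76% in the HDAC3-deficient libraries against 19.4% and 19.2% in controls.

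**Figure D3:**
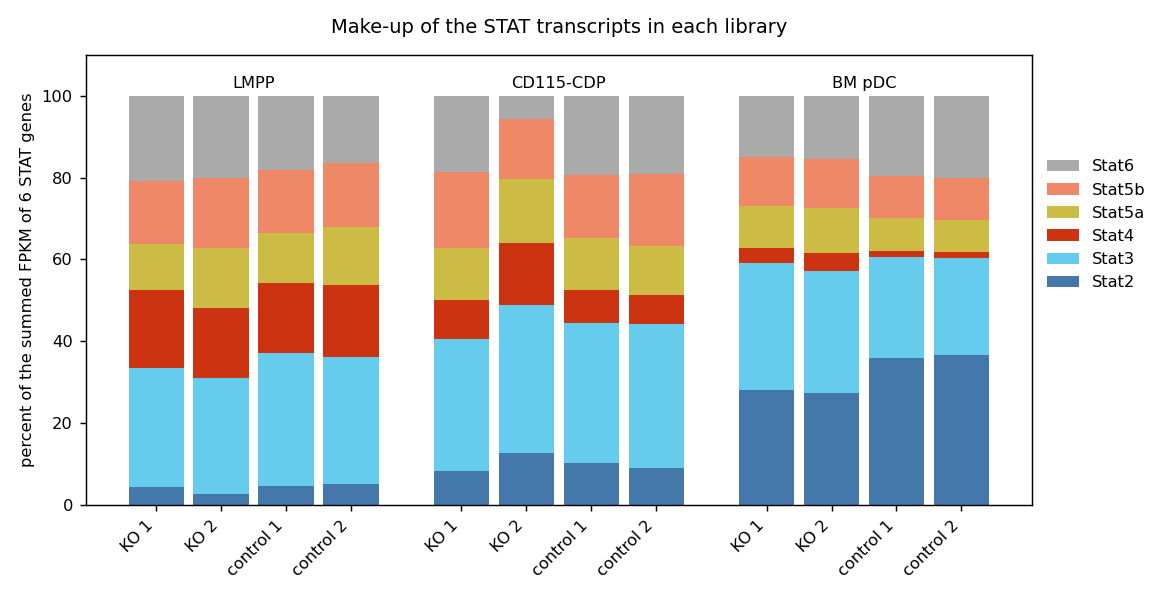
Percent of the summed FPKM of 6 STAT genes taken by each gene, as a stacked bar per library, with HDAC3-deficient (KO) bars left of control bars in each cell type. In BM pDCs the *Stat2* segment is smaller (27.6 against 36.3%) and the *Stat4* segment larger (4.08 against 1.495%) in the HDAC3-deficient libraries.

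Other genes of the pathway were counted from 5 lists. The lists were drawn up with earlier results of these data known, so the counts are descriptions and not independent evidence. In BM pDCs, of 11 genes known to be induced through STAT factors, 8 rose, 0 fell and 3 did not pass (edgeR; median log2 change 1.03, against −0.01 for all genes, of which 21.6% rose and 22.5% fell). *Ccnd2*, a G1 cyclin gene, measured 22.4 and 23.9 FPKM in HDAC3-deficient and 5.36 and 5.15 FPKM in control BM pDCs (2.27), and *Bcl6*, a transcriptional repressor gene, 16.1 and 20.8 FPKM and 5.18 and 4.29 FPKM (2.11). *Bcl3* (1.62), the survival gene *Mcl1* (1.45), *Junb* (1.03) and the kinase gene *Pim1* (0.79) rose as well. The largest adjusted p of these 6 was 0.00152 (edgeR). *Irf9*, the partner of STAT2, was at 73.4 and 73.9 FPKM in HDAC3-deficient and 69.8 and 70.2 FPKM in control BM pDCs and did not pass (0.22, edgeR, adjusted p = 0.0732). In LMPPs, of 10 genes of this list tested, *Osm* (0.98) and *Ccnd2* (0.63) rose, *Junb* (−0.82) and *Irf9* (−0.75) fell and 6 did not pass (limma), where 4.31% of all genes rose and 18.8% fell.

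Among 26 chains of STAT-activating receptors in BM pDCs, 12 rose, 4 fell and 10 did not pass (edgeR), beside 21.6% and 22.5% of all genes that rose and fell. *Il12rb1*, a chain of the receptor that activates STAT4, measured 6.95 and 8.0 FPKM in HDAC3-deficient and 0.76 and 1.19 FPKM in control BM pDCs and rose (edgeR, adjusted p = 7.5e-05). *Il21r* (1.88), *Il10ra* (1.85) and *Il6ra* (1.45), whose receptors signal mainly through STAT3, and *Il4ra* (1.32), whose receptor signals through STAT6, rose. *Il7r*, whose receptor signals through STAT5, fell to 19.15 and 11.2 FPKM in HDAC3-deficient BM pDCs, against 82.3 and 84.1 FPKM in controls (−2.33, SE 0.21, edgeR, adjusted p = 2.0e-04). In LMPPs 2 of 22 receptor chains tested rose, 8 fell and 12 did not pass (limma), beside 4.31% and 18.8% of all genes. *Il27ra* (−1.08), *Csf2ra* (−0.93) and *Csf3r* (−0.67) fell, whereas *Il12rb1* (1.10) and *Il10ra* (0.98) rose in LMPPs too.

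The kinases and the remaining inhibitors moved less uniformly. Beside them, 21.6% of all genes rose and 22.5% fell in BM pDCs (edgeR), and 4.31% rose and 18.8% fell in LMPPs (limma). Of the 4 JAK genes, *Jak3* (0.41) and *Jak2* (0.31) rose and *Jak1* (−0.33) fell in BM pDCs (edgeR). In LMPPs *Jak2* (−1.51), *Jak3* (−0.64) and *Jak1* (−0.54) fell (limma), *Jak1* narrowly (adjusted p = 0.0442). *Tyk2* passed in neither. Of 5 other SOCS family genes, *Cish*, a feedback inhibitor induced by STAT5 that is also on the list of induced genes, rose in BM pDCs by 2.21 at low levels, 1.14 and 1.08 FPKM in HDAC3-deficient and 0.31 and 0.21 FPKM in control cells. *Socs5* fell in BM pDCs (−1.06) and in LMPPs (−0.89), and *Socs7* fell in BM pDCs (−0.40). Of 11 further inhibitors, 3 rose, 2 fell and 6 did not pass in BM pDCs. *Ptpn6* (0.54), *Cbl* (0.59) and *Sh2b3* (0.34) rose there. *Ptpn2* (−0.30, edgeR, adjusted p = 0.0429) and *Pias3* (−0.26, edgeR, adjusted p = 0.0492) fell narrowly. In LMPPs *Pias3* (−1.60) and *Ptprc* (−0.77) fell and 9 did not pass. In CD115-CDPs none of the genes tested from the 5 lists passed with limma.

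**Figure D4:**
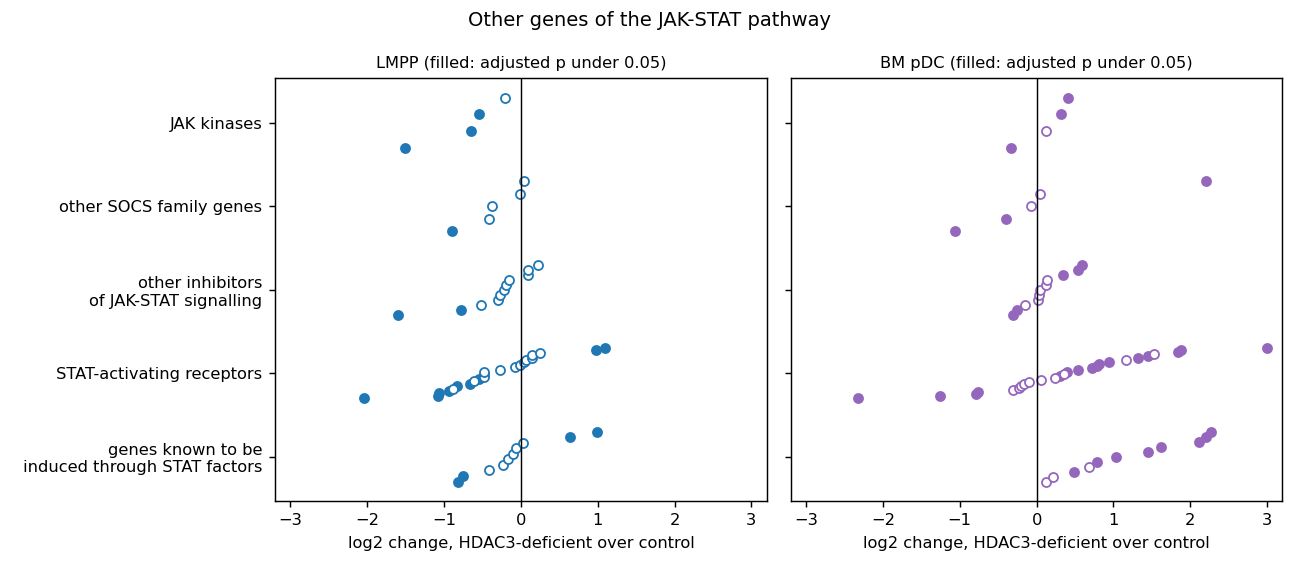
Log2 change, HDAC3-deficient over control, of each gene of 5 JAK-STAT pathway lists in LMPPs (left panel) and BM pDCs (right panel), a point per gene and filled for an adjusted p under 0.05. Of the genes known to be induced through STAT factors, 8 of 11 are filled to the right of 0 in BM pDCs, and 2 of 10 in LMPPs.

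The genes whose log2(FPKM + 0.5) followed a member most closely were sought over all 12 libraries among 11560 genes, for the 3 members with the smallest adjusted p. The correlations are descriptions over libraries that share cell type, genotype and table. *Stat4* was followed by *Kit* (Pearson's r = 0.990), the stem cell factor receptor gene, then by *F2r* (0.981) and *Bin2* (0.978). *Stat3* was followed by *Hlcs* (0.945), *C2cd5* (0.918) and *Rgs12* (0.915), and *Stat5a* less closely by *Arhgef40* (0.882), *Snx20* (0.862) and *Oas3* (0.851).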

How the data were processed

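Sorted cells were profiled by RNA-seq. Bowtie2, RSEM and mm10 are named in the processing notes of the submitters, without roles or versions. The authors deposited FPKM per gene for LMPPs and CD115-CDPs, and an expected count, FPKM and TPM for BM pDCs. The deposited expected counts are RSEM-style estimates that need not be whole and were rounded, and the authors' TPM was not used. Genotypes came from the sample labels, and 0 columns were left unmapped. CD115-CDP rows were named through gene IDs.

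In LMPPs and CD115-CDPs, log2(FPKM + 0.5) was tested for genes reaching 1 FPKM in 2 or more of the 4 libraries, with limma 3.58.1 (trend) in R 4.3.3. Fold changes on this scale understate those of low genes. BM pDC counts were tested with edgeR 4.0.16 (filterByExpr, TMM, quasi-likelihood). The SE of an edgeR log2 change was computed from the change and its F value. Differences between cell types came from limma on FPKM of all 12 libraries. All tests are two-sided, p-values were adjusted by Benjamini-Hochberg across the genes tested, and genes under 0.05 count as called. DESeq2 1.42.0 was an alternative. The procedure was tested on simulated data. Python 3.11.15, pandas 2.3.3 and matplotlib 3.10.9 were used otherwise.

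All 9 members are described. From each pathway list, genes with a call were named, up to 6 per cell type by smallest p, except 1 gene not reported here. Members and lists were chosen with earlier results of these data known. Promoters and coordinates are from RefSeq on GRCm38.p6. Separate normalization of the 3 tables limits comparisons of levels between cell types.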

Additional observations from a re-analysis of the deposited data

Results flagged for a closer look

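For 5 members the HDAC3-deficient libraries of BM pDCs and of LMPPs lay on opposite sides of their controls, or the effect of HDAC3 loss differed by test. *Stat4* was picked out by the test of the difference itself, at 1.93 on the log2 scale between BM pDCs and LMPPs (limma, adjusted p = 0.00951) and 1.19 between BM pDCs and CD115-CDPs (limma, adjusted p = 0.0428). *Stat3* (1.16), *Stat5a* (1.10) and *Stat5b* (0.81) were higher in both HDAC3-deficient BM pDC libraries and lower in both HDAC3-deficient LMPP libraries than in their controls, and their differences did not pass the test over all 12 libraries. *Socs1* (−0.69) was the reverse, lower in BM pDCs and higher in LMPPs, and its difference did not pass either. Of 10039 genes tested in both cell types, 10.5% lay above the controls in BM pDCs and below them in LMPPs, and 7.46% the other way round. No group held 4 or more libraries, so single libraries could not be judged against their group.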

How the results depend on the processing

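The members' log2 changes and the counts of calls were recomputed under the alternatives tried, whereas the pathway lists, shares and correlations were computed once. In LMPPs 4 members were called, against 0 with no filter on low values, 0 with median ratio scaling and 1 with quantile normalization (*Stat3*), and all genes called numbered 2576, against 501 with no filter and 1651 with quantile normalization. In CD115-CDPs 0 genes were called, against 2 with quantile normalization. In BM pDCs 5 members were called, against 8 with limma on log2(FPKM + 0.5), 4 higher and 4 lower. That setting called 51.1% of all genes, 17.2% higher and 33.9% lower, against 44.1% in the main fit. For the difference between BM pDCs and LMPPs, 1 member and 466 genes passed, against 5 and 3223 with only the 2 cell types and 5 and 3290 with array weights. Between BM pDCs and CD115-CDPs, 1 member and 768 genes passed, against 0 and 149 with only the 2 cell types and 0 and 170 with array weights. Between CD115-CDPs and LMPPs, 122 genes passed, against 0 with only the 2 cell types and 0 with array weights. The cause of these shifts was not tested. Leaving out 1 library at a time gave 0 to 5 members and 1167 to 3932 genes in LMPPs, 0 to 5 and 0 to 5111 in CD115-CDPs, and 2 to 5 and 2750 to 7005 in BM pDCs. For the differences it gave 0 to 4 and 62 to 2783 (BM pDCs and LMPPs), 0 to 6 and 99 to 5858 (BM pDCs and CD115-CDPs), and 0 to 3 and 4 to 5035 (CD115-CDPs and LMPPs). The sign of a member's log2 change turned only in such fits. This happened for *Socs2* in LMPPs (−0.15 to 0.58), and in CD115-CDPs for *Stat5a* (−0.52 to 0.11), *Stat5b* (−1.02 to 0.27), *Stat6* (−2.53 to 0.0239), *Socs1* (−0.0505 to 0.57) and *Socs3* (−1.44 to 2.01). It happened for the difference between BM pDCs and LMPPs in *Stat6* (−0.0814 to 0.17), *Socs2* (−0.58 to 0.15) and *Socs3* (−0.0878 to 0.73), and between BM pDCs and CD115-CDPs in *Stat2* (−0.17 to 0.16), *Stat6* (−0.30 to 2.25) and *Socs3* (−2.72 to 0.72). Between CD115-CDPs and LMPPs it happened in *Stat3* (−0.10 to 0.69), *Stat5b* (−0.53 to 0.76), *Stat6* (−2.21 to 0.35), *Socs1* (−0.24 to 0.39) and *Socs3* (−0.40 to 3.04). Where 1 library of a group remained, it was assumed to vary like the others. In BM pDCs no sign turned under any alternative.

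Libraries of equal number deviated together in CD115-CDPs (r = 0.24) but not in LMPPs (−0.10) or BM pDCs (−0.24). No source tells whether the numbers pair the libraries, and these correlations from duplicates cannot decide it. With a replicate block, 4 LMPP, 0 CD115-CDP and 5 BM pDC members were called, among 2548, 393 and 5061 genes. For the differences the replicate block gave 1 member and 159 genes (BM pDCs and LMPPs), 0 and 392 (BM pDCs and CD115-CDPs) and 0 and 27 (CD115-CDPs and LMPPs). A replicate block with the numbers crossed, chosen after seeing the data, gave 6 members and 3510 genes in LMPPs and 5 and 5694 in BM pDCs.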
